A study of Macaca mulatta with 45 samples.

Results

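The genes described here are 7 that mark the endothelial cells lining blood vessels: CD93, CLEC1A, FLT1, KDR, TEK, PECAM1 and VWF. They were found by their rhesus gene symbols, and all 7 of them were present among the 30246 gene IDs counted. The data are total RNA sequencing of 3 brain regions from 15 rhesus macaques, with 1 library per animal and region and 45 libraries in all. The regions were the deep white matter (centrum semiovale), the hippocampus and the prefrontal cortex (Brodmann area 46). The vessels of every animal had been flushed with saline before the brain was taken.

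Each treatment group held 5 animals, and every animal of the study had been irradiated in some form. Fractionated whole-brain irradiation had brought the fWBI animals to 40 Gy in 8 doses of 5 Gy each, and their necropsy followed 12 months later. Total body irradiation of the TBI animals was a single dose of 6.75, 6.75, 7.2, 7.2 or 8.05 Gy, with necropsy 6 to 9 years afterwards. The control animals had 10 Gy to the thorax alone, with a labelled brain dose of 0.1 Gy that the study gives as an upper estimate. The labels used here give no age or sex, and time since irradiation differed between fWBI and TBI, so dose, fractionation and time cannot be told apart between them.

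Endothelial cells form the wall of brain capillaries and, with pericytes and astrocytes, the blood-brain barrier. They sense vascular endothelial growth factors (VEGFs) through the receptors FLT1 and KDR and angiopoietins through TEK. PECAM1 holds neighbouring cells together, and von Willebrand factor (VWF) is stored in granules and captures platelets when released. CD93 and CLEC1A are lectin-like surface proteins: CD93 acts in endothelial adhesion and vessel growth and is also made by monocytes, and CLEC1A is found on endothelial and myeloid cells.

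Total counts ran from 6625435 to 12541507 per library, and levels are given as CPM, counts scaled to a common library size after TMM scaling over all 45 libraries. The 7 genes had medians of 26 to 501 counts per library; CLEC1A was the scarcest, with 3 to 161 counts. The tissue labels were checked against SNAP25, a neuronal gene, and MBP, a myelin gene. In white matter, MBP averaged 18605, 31720 and 28744 CPM in fWBI, TBI and control animals, and no group mean of the other regions was above 1908 CPM. White matter of control animals 1 and 3 stood apart: the mean log2 CPM of 12 pan-neuronal genes was 8.77 and 7.79 there, against 5.27 to 5.61 in the other 3 controls and 4.84 to 5.84 in the irradiated animals. Calls that rest on control white matter are therefore also given without those 2 libraries. The haemoglobin gene HBA reached 122, 58.6 and 96.2 CPM in white matter, hippocampus and prefrontal cortex of TBI animal 4, and at most 5.36 CPM in every library of the other animals.

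After fWBI, CD93 and CLEC1A were higher than in controls in all 3 regions, PECAM1 was higher in white matter and hippocampus, and KDR, VWF and FLT1 passed in white matter. In that region, 6 of the 7 genes passed an adjusted p of 0.05 (edgeR's quasi-likelihood test, Benjamini-Hochberg adjustment over all genes tested), 5 of them higher and FLT1 lower, where 16.7% of 15235 genes tested passed (8.8% higher and 7.86% lower). In hippocampus 3 of 7 passed, all higher, against 0.723% of 15357 genes (0.514% higher). In prefrontal cortex 2 of 7 passed, both higher, against 1.15% of 15531 genes (0.798% higher). The 5 fWBI animals lay above the 5 controls for CD93, CLEC1A and PECAM1 in white matter and hippocampus, as did 6.27% and 1.43% of genes tested, and for CD93 in prefrontal cortex, as did 1.97%. For FLT1 in white matter they lay below them, as for 4.05% of genes. The median log2 fold change of the 7 was 0.87 in white matter, 0.63 in prefrontal cortex and 0.27 in hippocampus, where that of all genes was between -0.03 and 0.00. Without control white matter libraries 1 and 3, 3 of the 7 passed in white matter, all higher: CD93, CLEC1A and PECAM1. In that fit 10.8% of 15550 genes passed (7.23% higher and 3.54% lower). In whole tissue, more cells of a type cannot be told apart from more RNA per cell, nor fewer cells from less RNA.

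**Figure D1:**
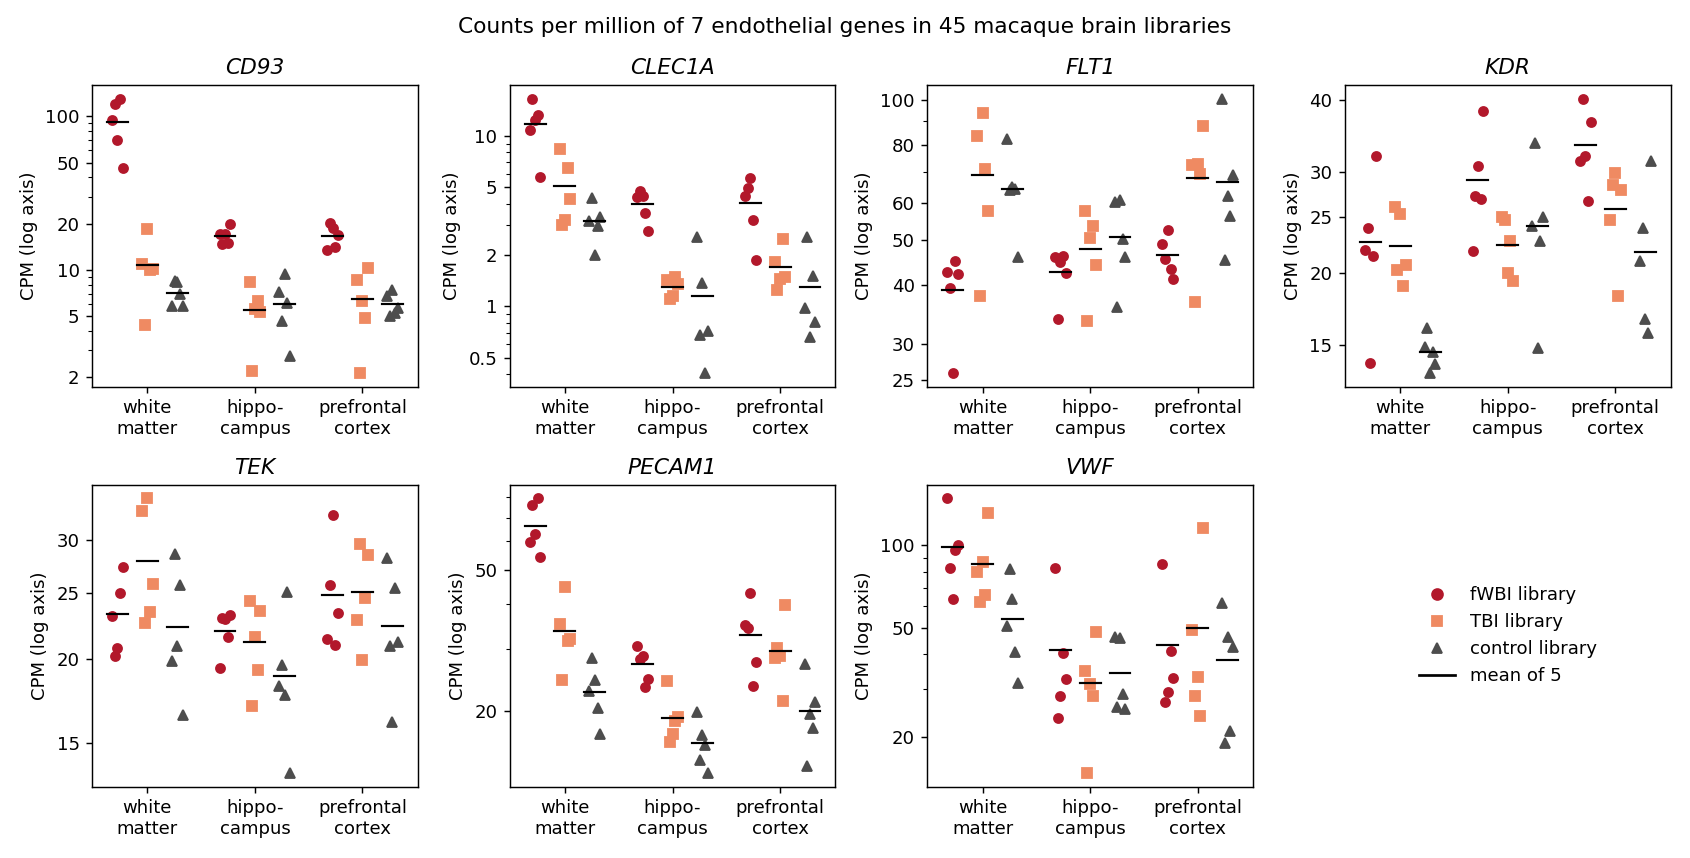
CPM (log axis) of the 7 genes in every library, by region, with fWBI (circles), TBI (squares) and control (triangles) side by side and the mean of 5 animals as a bar. CD93 in white matter ran from 46.0 to 131 CPM in fWBI animals, above all other libraries of the study, while TEK overlapped among all groups.

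CD93 had the largest fold change of the 7 genes, in white matter. In the white matter of fWBI animals 1 to 5 it stood at 94.3, 121, 70.2, 131 and 46.0 CPM. In control white matter it stood at 5.80, 8.44, 8.36, 6.99 and 5.83 CPM. Every fWBI animal was above every control, with animal 5 the lowest of them and animal 4 the highest. The log2 fold change was 3.71 ± 0.34 (SE), a 13.1-fold difference with an adjusted p of 4.41e-06, and CD93 ranked 44 by p-value among the genes tested.

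In hippocampus CD93 was 17.0, 14.7, 17.1, 15.0 and 19.8 CPM in fWBI animals. Control hippocampus had 7.18, 4.64, 9.37, 6.10 and 2.76 CPM. The groups did not overlap, and the fWBI animals were closer together than the controls. On the log2 scale the difference was 1.47 ± 0.29 (adjusted p = 0.0244). That call was lost when any 1 of control libraries 1, 4 and 5 or fWBI libraries 1, 3 and 5 was left out, with adjusted p-values of 0.0501 to 0.0674 and log2 fold changes of 1.28 to 1.53.

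In prefrontal cortex CD93 was 13.5, 20.2, 18.9, 14.0 and 16.8 CPM in fWBI animals, against 6.72, 5.02, 7.40, 5.25 and 5.64 CPM in controls, with no overlap. CD93 differed there by 1.48 ± 0.28 on the log2 scale (adjusted p = 0.0137).

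The fWBI effect differed between white matter and prefrontal cortex, and between white matter and hippocampus, for 2 of the 7 genes, CD93 and PECAM1, where 9.96% and 8.96% of 16614 genes did. Between hippocampus and prefrontal cortex, 0 of 7 and 0% of genes passed edgeR's test, 0 of 7 passed by DESeq2, and 0 of 7 had an unadjusted p under 0.05, where 1.8% of genes did. The effect on CD93 was larger in white matter than in prefrontal cortex by a log2 difference of 2.19 ± 0.35 (adjusted p = 0.000117) and larger than in hippocampus by 2.13 ± 0.35 (adjusted p = 0.000178), while hippocampus and prefrontal cortex differed by 0.06 ± 0.35. Without control white matter libraries 1 and 3 the differences from white matter were 1.90 (adjusted p = 0.00261) and 1.84 (adjusted p = 0.00418).

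Over the 9 groups the CD93 order ran from fWBI white matter (92.4 ± 35.1 CPM, SD, n = 5) to fWBI hippocampus (16.7 ± 2.04) and fWBI prefrontal cortex (16.7 ± 2.93), then TBI white matter (10.8 ± 5.03). The other 5 groups averaged between 5.51 and 7.08 CPM. The first step was the only one at which neighbouring groups did not overlap. The share of all genes apart at that step is not given here. The highest group mean was 16.8 times the lowest, the widest span of the 7 genes.

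CLEC1A had few counts throughout and was higher after fWBI by 1.64 to 1.89 on the log2 scale, depending on the region. In white matter it was 10.9, 16.5, 12.4, 13.3 and 5.75 CPM in fWBI animals, and 3.18, 4.33, 1.99, 2.94 and 3.34 CPM in controls. The groups were apart, with fWBI animal 5 again the lowest. The log2 fold change was 1.89 ± 0.33 (adjusted p = 0.000842).

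In hippocampus CLEC1A was 4.37, 4.74, 4.46, 3.53 and 2.78 CPM in fWBI animals, against 2.55, 0.679, 1.37, 0.407 and 0.720 CPM in controls. The groups did not overlap, but the gap between fWBI animal 5 and control animal 1 was narrow. On the log2 scale the difference was 1.77 ± 0.35 (adjusted p = 0.0208), and the adjusted p was 0.0681 without control library 5, 0.0560 without fWBI library 2 and 0.104 in a fit of the 2 groups alone.

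In prefrontal cortex the fWBI animals had 4.45, 4.96, 5.68, 3.23 and 1.88 CPM of CLEC1A. The controls had 0.977, 2.56, 0.664, 1.50 and 0.806 CPM. Animal 5 of the fWBI group lay below control animal 2, so the groups overlapped. Its log2 fold change was 1.64 ± 0.36 (adjusted p = 0.0345). The call was lost without any 1 of control libraries 1, 3, 4 and 5 or fWBI libraries 1 to 4, with adjusted p-values of 0.0511 to 0.103 and log2 fold changes of 1.45 to 1.70, and in a fit of the 2 groups alone (0.0972). The fWBI effect on CLEC1A in white matter differed from that in prefrontal cortex by 0.24 ± 0.40 (adjusted p = 0.781) and from that in hippocampus by 0.09 ± 0.43 (adjusted p = 0.947).

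The 2 VEGF receptors moved in opposite directions in white matter. FLT1, which binds VEGF tightly and signals weakly, was 42.7, 39.5, 25.9, 45.1 and 42.4 CPM in fWBI white matter. Control white matter had 82.3, 64.1, 65.0, 64.4 and 46.0 CPM. All 5 fWBI animals were below all 5 controls, with fWBI animal 4 and control animal 5 nearly touching. FLT1 thus had a log2 fold change of -0.72 ± 0.22 (adjusted p = 0.0391). Leaving out any 1 of fWBI libraries 1 to 5 or control libraries 1 to 4 gave adjusted p-values of 0.0507 to 0.109, and leaving out both control libraries 1 and 3 gave -0.55 (adjusted p = 0.203). The call was also lost with no filter on low counts (0.0576) and with a grey or white matter covariate (0.135). In hippocampus FLT1 was 42.7 ± 5.17 CPM in fWBI animals and 50.8 ± 10.5 CPM in controls, and in prefrontal cortex 46.4 ± 4.58 and 66.6 ± 20.8 CPM (SD, n = 5 each). Neither difference passed, at -0.25 ± 0.16 (adjusted p = 0.595) and -0.51 ± 0.21 (adjusted p = 0.304).

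KDR, the main signalling receptor for VEGF in endothelium, was 22.0, 24.0, 14.0, 21.4 and 31.9 CPM in fWBI white matter. Control white matter had 14.9, 16.1, 13.4, 14.6 and 13.9 CPM. Animal 3 of the fWBI group lay among the controls and the other 4 lay above them. KDR had a log2 fold change of 0.64 ± 0.18 (adjusted p = 0.0204). The adjusted p was 0.0513 without control library 3, 0.0523 without fWBI library 5, 0.0740 without control libraries 1 and 3 and 0.0548 in a fit of the 2 groups alone. In hippocampus KDR was 29.0 ± 6.09 CPM in fWBI animals and 24.1 ± 6.73 CPM in controls (0.27 ± 0.18, adjusted p = 0.629). In prefrontal cortex it was 33.3 ± 5.17 and 21.8 ± 6.30 CPM (0.63 ± 0.18, adjusted p = 0.115), with an adjusted p of 0.0373 by DESeq2 and 0.0421 without control library 5.

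The balance of the receptors was taken as log2 CPM of FLT1 minus that of KDR, a measure chosen after their values were seen and given with no test. In white matter it averaged 0.80 ± 0.26 in fWBI animals, 1.56 ± 0.41 in TBI animals and 2.10 ± 0.28 in controls. The fWBI animals ran from 0.41 to 1.06 and the controls from 1.71 to 2.45, so they did not overlap. The 3 controls other than animals 1 and 3 averaged 1.94 ± 0.21. In prefrontal cortex the means were 0.48 ± 0.28 after fWBI, 1.35 ± 0.59 after TBI and 1.60 ± 0.56 in controls, and the highest fWBI animal (0.72) was again below the lowest control (0.91). In hippocampus the 3 groups overlapped, at 0.57 ± 0.37, 1.07 ± 0.36 and 1.09 ± 0.70.

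**Figure D2:**
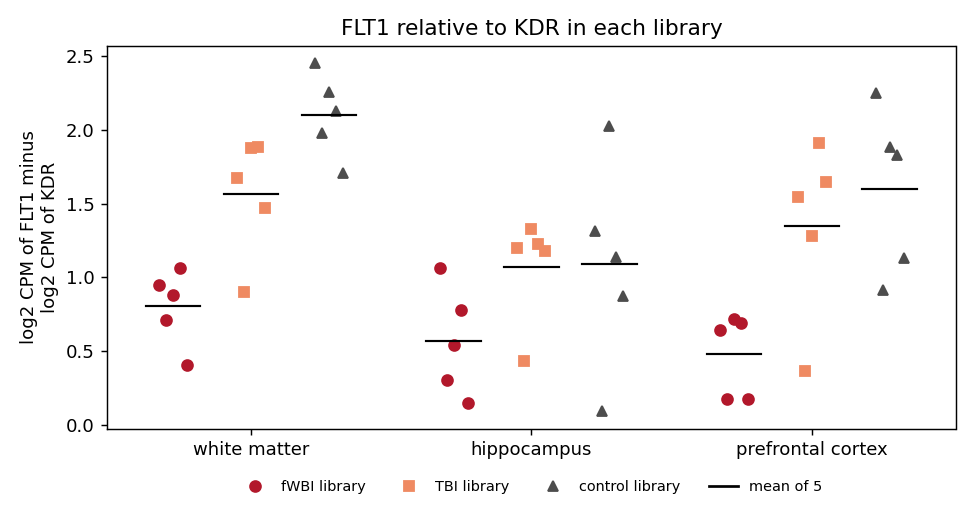
Log2 CPM of FLT1 minus log2 CPM of KDR (vertical axis) in each library, by region, for fWBI, TBI and control animals, with the mean of 5 as a bar. In white matter the fWBI animals lay between 0.41 and 1.06 and the controls between 1.71 and 2.45, while the hippocampal groups overlapped.

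TEK, the angiopoietin receptor TIE2, did not pass in any comparison. In white matter it was 23.1, 20.2, 20.8, 25.0 and 27.3 CPM in fWBI animals, against 19.8, 28.5, 20.9, 25.8 and 16.5 CPM in controls, with the groups interleaved. The log2 fold change after fWBI was 0.07 ± 0.17 in white matter (approximate 95% interval -0.26 to 0.39), 0.23 ± 0.14 in hippocampus and 0.17 ± 0.16 in prefrontal cortex, with adjusted p-values of 0.845, 0.592 and 0.684. Its 9 group means spanned a factor of 1.48, the narrowest of the 7 genes, and each overlapped its neighbour in the order.

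PECAM1, the junctional adhesion molecule CD31, was higher after fWBI and stood second to CD93 by p-value in white matter. It was 59.6, 76.1, 63.1, 79.2 and 54.3 CPM in fWBI white matter, and 22.9, 28.3, 24.6, 20.5 and 17.3 CPM in control white matter. The groups were far apart, with fWBI animal 5 the lowest at 54.3 CPM and control animal 2 the highest control at 28.3 CPM. On the log2 scale the difference was 1.55 ± 0.17 (adjusted p = 1.90e-05).

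In hippocampus PECAM1 was 30.6, 28.1, 28.6, 23.4 and 24.7 CPM in fWBI animals, against 20.0, 14.6, 17.2, 16.1 and 13.4 CPM in controls. The groups were apart, and the log2 fold change was 0.73 ± 0.13 (adjusted p = 0.0100). In prefrontal cortex it was 35.0, 34.3, 43.0, 23.5 and 27.6 CPM in fWBI animals, against 27.2, 14.1, 19.6, 18.0 and 21.3 CPM in controls. Those groups overlapped through fWBI animal 4 and control animal 1, and the difference of 0.72 ± 0.20 did not pass (adjusted p = 0.0921). It had adjusted p-values of 0.0242 by DESeq2, 0.0267 in a fit over all 45 libraries and 0.0470 without control library 1.

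The fWBI effect on PECAM1 was larger in white matter than in prefrontal cortex by 0.85 ± 0.23 (adjusted p = 0.0174) and than in hippocampus by 0.81 ± 0.23 (adjusted p = 0.0260). Without control white matter libraries 1 and 3 these were 0.73 and 0.70, with adjusted p-values of 0.0996 and 0.131. The first was also lost without any 1 of control animals 1 and 5 or fWBI animals 2 and 4 (adjusted p 0.0527 to 0.0726). The second was lost without any 1 of control animals 1, 3 and 4 or fWBI animals 2 and 4 (adjusted p 0.0501 to 0.0773). In the order of the groups, fWBI white matter (66.5 ± 10.7 CPM) did not overlap with TBI white matter (33.5 ± 7.31 CPM), and all later neighbours overlapped. The share of all genes apart between those 2 groups is not given here. By edgeR's test 4.8% of genes were higher in fWBI than in TBI white matter.

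VWF varied most between animals of 1 group. In white matter it was 148, 82.5, 63.5, 95.9 and 99.9 CPM in fWBI animals, against 50.8, 81.7, 63.5, 40.8 and 31.4 CPM in controls. The groups overlapped through fWBI animal 3 and control animals 2 and 3. The log2 fold change was 0.87 ± 0.27 (adjusted p = 0.0394). The call was lost without any 1 of control libraries 1, 3, 4 and 5 or fWBI libraries 1, 2, 4 and 5 (adjusted p 0.0530 to 0.106), and it was 0.95 (adjusted p = 0.0894) without control libraries 1 and 3. Other fits that lost it were no filter on low counts (0.0589), the grey or white matter covariate (0.0619), the 2 groups alone (0.0698) and all 45 libraries (0.101). In hippocampus VWF was 41.4 ± 23.7 CPM in fWBI animals and 34.4 ± 10.8 CPM in controls. In prefrontal cortex it was 43.2 ± 24.3 and 38.2 ± 18.0 CPM, and neither difference passed (0.27 ± 0.35, adjusted p = 0.834, and 0.19 ± 0.45, adjusted p = 0.886). The fWBI effect on VWF in white matter differed from that in prefrontal cortex by 0.73 ± 0.33 (adjusted p = 0.177), and by 1.12 (adjusted p = 0.00852) without control animal 2; against hippocampus the values were 0.67 ± 0.33 (adjusted p = 0.246) and 0.97 (adjusted p = 0.0242).

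**Figure D3:**
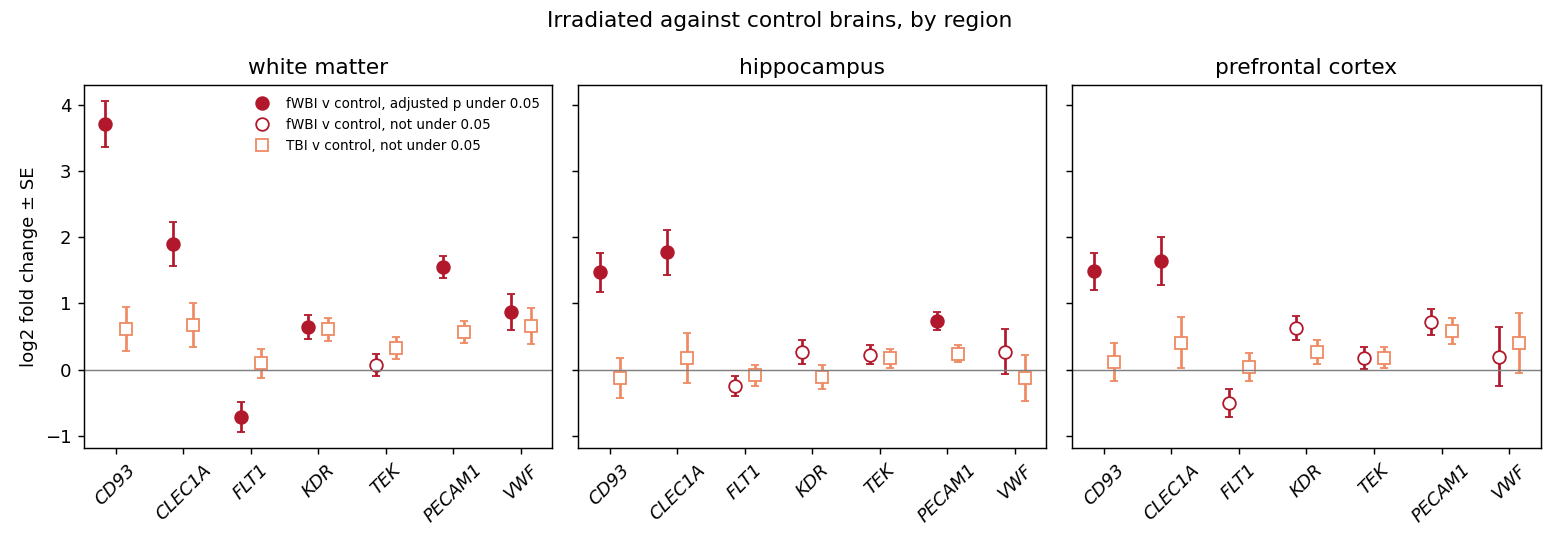
Log2 fold change against control with its standard error (vertical axis) for each of the 7 genes, by region, after fWBI (circles) and TBI (squares); filled symbols passed an adjusted p of 0.05. CD93 in fWBI white matter stood at 3.71, and the largest TBI value was that of CLEC1A in white matter, 0.67.

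Beside the 7 genes stood 9 other endothelial genes that were in the table: CDH5, ESAM, EGFL7, ROBO4, ERG, ENG, NOS3, CALCRL and RAMP2. In white matter after fWBI, 0 of the 9 were higher and 1 was lower, CALCRL at -1.02 ± 0.33 (adjusted p = 0.0472, and 0.0434 without control libraries 1 and 3), a receptor subunit for adrenomedullin. Their median log2 fold change was 0.00, against -0.03 for all genes, and in hippocampus and prefrontal cortex 0 of 9 passed edgeR's test in either direction, with medians of 0.09 and 0.09. At an unadjusted p under 0.05 there were 2 and 1 of 9, where 11.1% and 13.6% of all genes were. CDH5, the cadherin of endothelial junctions, averaged 19.2 ± 6.37 CPM in fWBI white matter and 15.9 ± 3.25 CPM in control white matter (SD, n = 5 each).

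Each of the 7 genes was also set against the mean log2 CPM of these 9 in the same library, by a two-sided exact permutation test over animals. That mean was 3.33 ± 0.29 in fWBI white matter and 3.47 ± 0.20 in control white matter (SD). The test was run on the 7 genes alone, so no share of all genes stands beside its counts. With 5 animals against 5 its smallest p is 0.00794, and over the 42 values computed that p has a Benjamini-Hochberg value of 0.0303. In white matter after fWBI, 6 of 7 reached it: CD93 was higher by 3.73, CLEC1A by 1.93, PECAM1 by 1.68, VWF by 1.03 and KDR by 0.72 on the log2 scale, and FLT1 fell by 0.58, each with the 2 groups apart. TEK was higher by 0.22 (exact p = 0.151). In hippocampus CD93 (1.46) and PECAM1 (0.65) reached the smallest p, and in prefrontal cortex CD93 (1.31) and FLT1 (-0.61) did. After TBI, 1 of 21 values reached it, PECAM1 in white matter, higher by 0.27. With the first 6 of the 9 genes alone, which leaves out CALCRL, the same 7 white matter values reached their smallest p (adjusted p = 0.0278), among them CD93 at 3.64, FLT1 at -0.66 and PECAM1 after TBI at 0.30. That version also passed CLEC1A (1.65, adjusted p = 0.0444) and FLT1 (-0.40, 0.0278) in hippocampus after fWBI, and PECAM1 in prefrontal cortex after fWBI (0.51) and TBI (0.42), both at 0.0444.

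Leaving out a library moved calls of this exact permutation test both ways. The adjusted p of CLEC1A in white matter was 0.0513 without any 1 control library, with differences of 1.77 to 2.01, and that of PECAM1 after TBI was also 0.0513, with 0.22 to 0.28. FLT1 in white matter (-0.64 to -0.48) was at 0.0513 to 0.0714 without control library 1 or any 1 fWBI library, and in prefrontal cortex (-0.50) at 0.0513 without control library 1. PECAM1 in hippocampus (0.61 to 0.70) was at 0.0513 to 0.0556 without any 1 of fWBI libraries 1 to 5. In the other direction, CLEC1A in hippocampus after fWBI passed without control library 1 (2.05, adjusted p = 0.0238) or 2 (1.66, 0.0476), FLT1 there without control library 2 (-0.40, 0.0278) and PECAM1 in prefrontal cortex without fWBI library 4 (0.66, 0.0278). After TBI, CLEC1A (0.70) and PECAM1 (0.34) passed in hippocampus without control library 1 (adjusted p = 0.0238 each), and PECAM1 in prefrontal cortex without TBI library 4 (0.43, 0.0476). The adjustment runs over all 42 values, so some calls also moved with a library of another region: PECAM1 in prefrontal cortex after fWBI (0.56) passed without hippocampal control library 1 or 2, or prefrontal TBI library 4 (adjusted p = 0.0444 to 0.0476), and CLEC1A in hippocampus without prefrontal TBI library 4 (0.0476). Without control white matter libraries 1 and 3, an alternative chosen after seeing the data, 0 of the 42 values passed the exact permutation test after adjustment, with adjusted p-values of 0.0682 or more, and 16 had an unadjusted exact p under 0.05. With 3 controls the smallest p in white matter is 0.0179, and the hippocampal and prefrontal values, unchanged in themselves, lost their calls through the shared adjustment. The fWBI differences in white matter then stood at 3.71 for CD93, 1.74 for CLEC1A, 1.72 for PECAM1, 1.12 for VWF, 0.68 for KDR and -0.46 for FLT1, each with the groups apart.

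Of 12 tested VEGF and angiopoietin genes, 2 were higher in white matter after fWBI and 0 were lower, a share equal to the 16.7% of all genes called there in either direction (8.8% higher). They were NRP2, a co-receptor for VEGFs, at 1.50 ± 0.18 (adjusted p = 3.96e-05) and ANGPT2, the ligand that antagonises TEK in resting vessels, at 0.98 ± 0.25 (adjusted p = 0.0152). ANGPT2 averaged 30.1 CPM in fWBI white matter and 15.4 CPM in control white matter. Without control libraries 1 and 3 NRP2 kept its call (1.46, adjusted p = 0.000579), ANGPT2 lost it (0.82, adjusted p = 0.0976), and FLT4, a receptor for lymphatic VEGFs named after its values were seen, was lower (-0.81, adjusted p = 0.0400). ANGPT2 was the only gene of the list to pass in prefrontal cortex, at 1.01 ± 0.20 (adjusted p = 0.0215), where 1.15% of all genes did. In hippocampus 0 of 12 passed and 2 had an unadjusted p under 0.05, where 0.723% and 11.1% of all genes did. VEGFA stood at -0.29 ± 0.22 there and VEGFB at 0.24 ± 0.13.

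Known partners and relatives of CD93 were counted next. IGFBP7, a secreted ligand of CD93, was higher in white matter by 0.81 ± 0.26 (adjusted p = 0.0422), 1 of 3 tested, where 8.8% of all genes were higher. Without control libraries 1 and 3 IGFBP7 was at 0.73 (adjusted p = 0.176) and 0 of 3 passed, where 10.8% of all genes did. In prefrontal cortex 3 of 4 were higher, where 0.798% of all genes were: IGFBP7 by 1.01 ± 0.18 (adjusted p = 0.00927), the matrix ligand MMRN2 by 0.69 ± 0.15 (adjusted p = 0.0343) and the related lectin CD248 by 1.44 ± 0.34 (adjusted p = 0.0494). In hippocampus 0 of 4 passed and 2 had an unadjusted p under 0.05, as 11.1% of all genes did, with MMRN2 at 0.50 ± 0.19 and IGFBP7 at -0.19 ± 0.82. Summed choroid plexus markers in hippocampus ran from 27.9 to 481 CPM in fWBI animals, 23.1 to 93.6 CPM in TBI animals and 32.4 to 743 CPM in controls, and the part of choroid plexus in the hippocampal values was not tested.

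CLEC1A belongs in humans to a cluster of lectin-like receptor genes with OLR1 and CLEC7A, of which 5 of 7 were in the table. Both that were tested in white matter were higher there, with and without control libraries 1 and 3. Of all genes, 8.8% were higher with those libraries and 7.23% without them. With all libraries, OLR1, a scavenger receptor for oxidised lipoprotein, was higher by 1.89 ± 0.26 (adjusted p = 0.000155). CLEC7A, the myeloid receptor dectin-1, was higher by 2.53 ± 0.42 (adjusted p = 0.000709). CLEC7A was also higher in hippocampus by 3.28 ± 0.52 (adjusted p = 0.00502) and in prefrontal cortex by 3.45 ± 0.48 (adjusted p = 0.00143), where 0.514% and 0.798% of all genes were. Of this cluster, 2 of 2 tested had an unadjusted p under 0.05 in each of these regions, where 11.1% and 13.6% of all genes did. Of the activation genes of endothelium, VCAM1, an adhesion molecule for leukocytes, was higher in white matter by 1.60 ± 0.25 (adjusted p = 0.000409) and in prefrontal cortex by 1.50 ± 0.20 (adjusted p = 0.000915). VCAM1 was at 1.64 in white matter without control libraries 1 and 3 (adjusted p = 0.00109). ICAM1, another leukocyte adhesion molecule, named after its values were seen, was at 0.64 there with all libraries (adjusted p = 0.330) and at 1.80 without those libraries (adjusted p = 0.000314). VCAM1 was the 1 of 6 tested that passed in prefrontal cortex, where 1.15% of all genes did. In hippocampus 0 of 5 passed and 2 had an unadjusted p under 0.05, where 0.723% and 11.1% of all genes did.

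Of 8 blood-brain barrier genes, 1 was lower in white matter after fWBI, the monocarboxylate transporter SLC16A1 at -0.41 ± 0.13 (adjusted p = 0.0462, and 0.0490 without control libraries 1 and 3), where 7.86% of all genes were lower. In prefrontal cortex 1 was higher, the tight junction gene OCLN at 0.63 ± 0.11 (adjusted p = 0.0128), where 0.798% were higher. In hippocampus 0 passed and 2 had an unadjusted p under 0.05, where 0.723% and 11.1% of all genes did. Of the mural cell genes, which mark pericytes and vascular smooth muscle, 2 of 8 were lower in white matter: ABCC9 at -0.50 ± 0.14 (adjusted p = 0.0254) and ACTA2 at -0.54 ± 0.17 (adjusted p = 0.0445), where 7.86% of all genes were lower. Without control libraries 1 and 3, 0 of 8 passed, where 10.8% of all genes did, with adjusted p-values of 0.0755 for ABCC9 and 0.126 for ACTA2. In hippocampus and prefrontal cortex 0 of 9 passed, with 2 and 4 at an unadjusted p under 0.05, where 11.1% and 13.6% of all genes were.

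**Figure D4:**
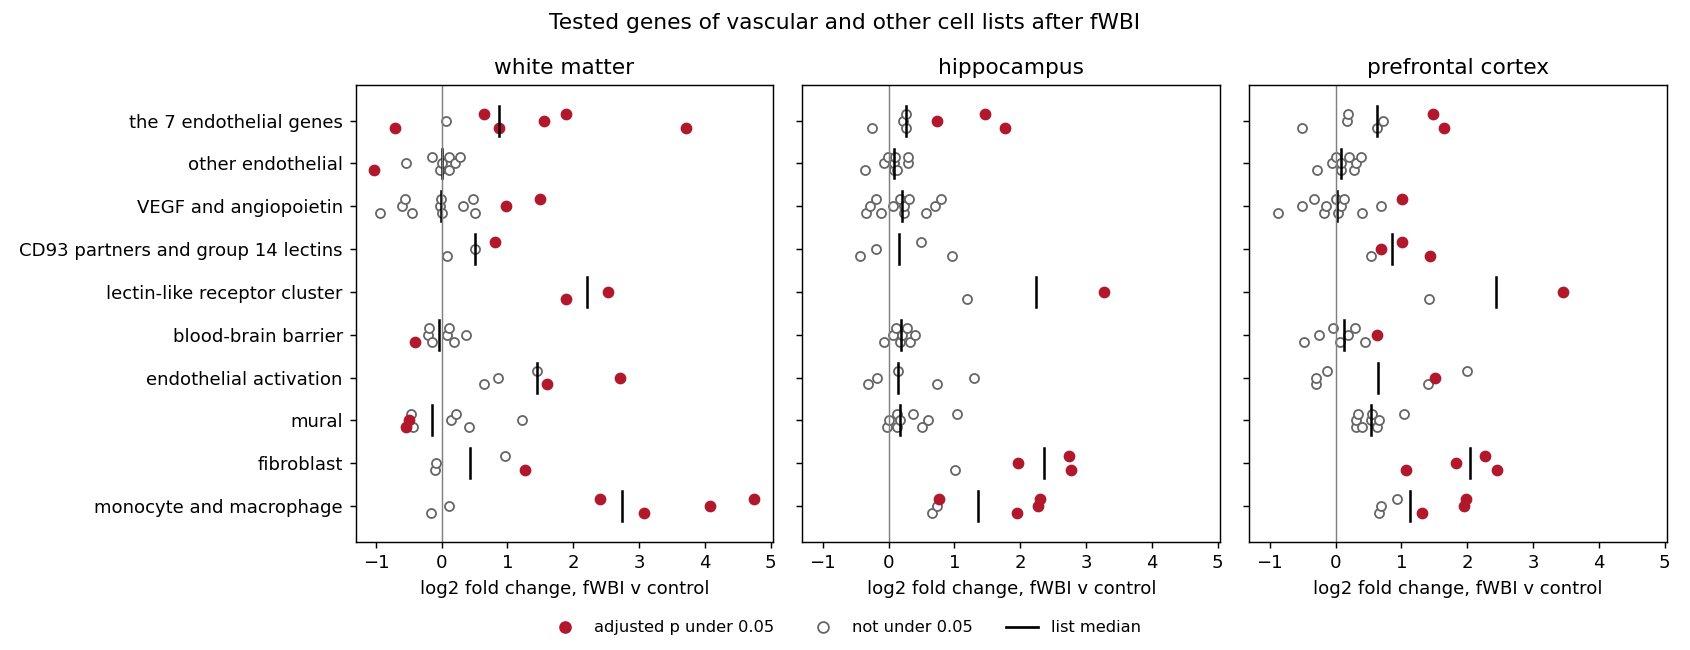
Log2 fold change of fWBI against control (horizontal axis) for each tested gene of 10 lists, by region, with filled points for an adjusted p under 0.05 and a bar at each list's median. The 7 genes spread from -0.72 to 3.71 in white matter, the other endothelial genes centred on 0.00, and monocyte and macrophage genes reached 4.75.

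Of the genes of monocytes and macrophages, cells that also make CD93 and PECAM1, 4 of 6 tested were higher after fWBI in white matter, 4 of 6 in hippocampus and 3 of 6 in prefrontal cortex, where 8.8%, 0.514% and 0.798% of all genes were. MRC1, the macrophage mannose receptor, stood at -0.16 ± 0.24 in white matter (adjusted p = 0.731) and was higher in hippocampus, by 0.76 ± 0.13 (adjusted p = 0.00845). The summed level of the 7 in the table ran from 277 to 633 CPM in fWBI white matter, 74.9 to 191 CPM in TBI white matter and 37.3 to 85.7 CPM in control white matter. In hippocampus the sums were 124 to 174, 75.7 to 93.7 and 61.0 to 75.6 CPM in fWBI, TBI and control animals, and in prefrontal cortex 90.5 to 131, 49.1 to 85.0 and 35.8 to 61.9 CPM. None of the 7 was at 0 throughout a group. LYZ, the lysozyme of phagocytes, was 189, 387, 434, 380 and 112 CPM in fWBI white matter. LYZ and SIGLEC1 were lowest in animal 5, as were CD93, CLEC1A and PECAM1. CD14 (34.1 CPM) and CD163 (29.8 CPM) were lowest in animal 4, the highest for CD93 and PECAM1. In animal 5, CD14 was 55.7 CPM and CD163 52.5 CPM. The LYZ log2 fold change in white matter was 4.75 ± 0.42 (adjusted p = 3.42e-06), and SIGLEC1, a macrophage lectin, stood at 4.08 ± 0.38 (adjusted p = 4.97e-06). Without control libraries 1 and 3, 4 of 6 were also higher, where 7.23% of all genes were. The part of these cells in the values of CD93, CLEC1A and PECAM1 was not tested.

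Fibroblast genes were higher in hippocampus (3 of 4 tested) and prefrontal cortex (4 of 4), where 0.514% and 0.798% of all genes were. COL3A1, a fibrillar collagen, stood at 2.75 ± 0.44 and 2.46 ± 0.34 there. In white matter 1 of 4 was higher, COL3A1 at 1.27 ± 0.24, where 8.8% of all genes were. The count there was the same without control libraries 1 and 3, where 7.23% of all genes were higher. Whether the fibroblast RNA came from vessels was not tested. Platelets also carry VWF and PECAM1; the platelet marker ITGA2B averaged 0.647 CPM in fWBI white matter and 1.12 CPM in control white matter, and the part of platelets in the values of VWF and PECAM1 was not tested.

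After TBI none of the 7 genes passed in white matter, hippocampus or prefrontal cortex (edgeR's quasi-likelihood test), where 0.0722%, 0% and 0% of all genes tested did. At an unadjusted p under 0.05 there were 3 of 7 in white matter, 1 in prefrontal cortex and 0 in hippocampus, where 18%, 11.7% and 10.6% of all genes were. DESeq2 called 2 in white matter, KDR (adjusted p = 0.0398) and PECAM1 (adjusted p = 0.0467), and 0 in the other regions, and a fit over all 45 libraries also called those 2 (adjusted p = 0.0299 and 0.0262). The 0.0722% is the share of the main fit, and the shares of these 2 fits are not given here. Over the alternative settings, 0 to 1738 of all genes were called in white matter, against 11 in the main fit. Leaving out TBI animal 4, with its high HBA, left 0 of 7 called in each region. Leaving out control libraries 1 and 3 also left 0 of 7 called in white matter, where 0% of all genes then passed. KDR was at 0.59 and PECAM1 at 0.62 there.

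KDR in TBI white matter was 26.1, 20.2, 25.3, 19.0 and 20.7 CPM, against the control values of 13.4 to 16.1 CPM. All 5 TBI animals lay above all 5 controls, as did 1.57% of the genes tested, and the log2 fold change was 0.61 ± 0.18 (adjusted p = 0.140). PECAM1 was 35.1, 24.5, 44.6, 31.5 and 31.8 CPM in TBI white matter and overlapped the controls through TBI animal 2 (0.56 ± 0.17, adjusted p = 0.140). VWF was 79.9, 62.0, 86.6, 66.0 and 130 CPM there (0.66 ± 0.27, adjusted p = 0.219). CD93 and CLEC1A stood at 0.61 ± 0.33 and 0.67 ± 0.33 in white matter, with CD93 at -0.13 ± 0.30 in hippocampus and 0.12 ± 0.29 in prefrontal cortex. The fWBI and TBI comparisons share their controls. The TBI effect on the 7 genes was not called as different between any 2 regions, in tests where 5, 0 and 1 of 16614 genes passed (0.0301%, 0% and 0.00602%, white matter against prefrontal cortex, hippocampus against prefrontal cortex and white matter against hippocampus). DESeq2 also called 0 of the 7, and KDR (0.67 ± 0.22) and VWF (0.79 ± 0.33) had an unadjusted p under 0.05 in the last of these. At that level lay 0, 0 and 2 of the 7, where 12.9%, 2.61% and 14.4% of genes were.

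Set directly against TBI, fWBI gave higher CD93 in every region. In white matter 4 of 7 passed, against 7.33% of all genes (4.8% higher and 2.53% lower): CD93 at 3.09 ± 0.33 (adjusted p = 3.92e-05), CLEC1A at 1.22 ± 0.32 (adjusted p = 0.0265) and PECAM1 at 0.99 ± 0.17 (adjusted p = 0.00148) were higher, and FLT1 at -0.81 ± 0.22 (adjusted p = 0.0376) was lower. CLEC1A was lost without any 1 of TBI libraries 2, 3 and 5 or fWBI libraries 2, 3 and 4 (adjusted p 0.0530 to 0.0839), and FLT1 without any 1 of TBI libraries 1, 3 and 4 or fWBI libraries 1 to 5 (0.0507 to 0.119). KDR differed by 0.03 ± 0.17 and VWF by 0.21 ± 0.27 between fWBI and TBI white matter, with approximate 95% intervals of -0.31 to 0.37 and -0.32 to 0.74.

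In hippocampus 1 of 7 passed, CD93 at 1.60 ± 0.29 (adjusted p = 0.0220), where 0.339% of genes did, and CLEC1A was at 1.60 ± 0.33 (adjusted p = 0.0549, and 0.00109 by DESeq2). In prefrontal cortex 1 of 7 passed, CD93 at 1.37 ± 0.27 (adjusted p = 0.0428), against 0.29% of genes. Both calls of CD93 were close to the threshold: in hippocampus it was lost without any 1 of TBI libraries 3, 4 and 5 or fWBI libraries 1, 3 and 5 (adjusted p 0.0514 to 0.0712) and in prefrontal cortex without any 1 of TBI libraries 1, 3 and 4 or fWBI libraries 1 to 5 (0.0570 to 0.149), in a fit of the 2 groups alone (0.130) and with the grey or white matter covariate (0.0569). In both regions every fWBI animal lay above every TBI animal for CD93, as did 1.2% of genes in hippocampus and 0.728% in prefrontal cortex.

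Among control animals, CLEC1A was higher and KDR lower in white matter than in the other regions. White matter against prefrontal cortex had 2 of 7 called, where 60.9% of 15406 genes were: CLEC1A was higher by 1.33 ± 0.43 (adjusted p = 0.0184, in 5 of 5 animals) and KDR lower at -0.52 ± 0.16 (adjusted p = 0.0166, lower in 5 of 5). White matter against hippocampus had 3 of 7, where 55.9% were: CLEC1A at 1.46 ± 0.44 (adjusted p = 0.0147) and PECAM1 at 0.51 ± 0.17 (adjusted p = 0.0252) were higher, and KDR at -0.67 ± 0.16 (adjusted p = 0.00524) was lower. Hippocampus against prefrontal cortex had 0 of 7 by edgeR's quasi-likelihood test and by DESeq2, where 15% of genes passed by edgeR, and 1 of 7, FLT1 at -0.37 ± 0.16, had an unadjusted p under 0.05 (0.0359), where 28.9% of genes did. Without control animal 5 the first comparison had 0 of 7 (CLEC1A adjusted p = 0.0889, KDR 0.0687). In the second, CLEC1A was lost without control animal 4 or 5 (0.0578 and 0.0726) and PECAM1 without control animal 2, 3 or 4 (0.0582, 0.0759 and 0.0619). Without white matter of control animals 1 and 3, the calls above remained and VWF was also called as higher in white matter, by 0.87 against prefrontal cortex (adjusted p = 0.0483) and by 0.98 against hippocampus (adjusted p = 0.0280).

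The highest of the 9 group means lay in fWBI white matter for CD93, CLEC1A, PECAM1 and VWF, and in TBI white matter for FLT1 (68.8 ± 21.9 CPM) and TEK (27.9 ± 5.55 CPM). KDR was highest in fWBI prefrontal cortex (33.3 ± 5.17 CPM) and lowest in control white matter (14.6 ± 1.02 CPM). FLT1 was lowest in fWBI white matter (39.1 ± 7.63 CPM). The highest mean was 10.3 times the lowest for CLEC1A, 4.09 for PECAM1, 3.12 for VWF, 2.29 for KDR and 1.76 for FLT1, and neighbours in these orders overlapped, PECAM1's first step aside.

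Within groups, the 7 genes followed different companions over the 45 libraries, which share animals and are given here as a description. After centring on the 9 group means, the genes closest to CD93 among 11446 searched were FLT1 (r = 0.70), NOS3 (0.69) and COL14A1 (0.69). FLT1 was closest to NOS3 (0.81), PECAM1 to BGN (0.74), VWF to EPAS1 (0.72), KDR to CPED1 (0.64), CLEC1A to TLR4 (0.63) and TEK to LEF1 (0.60). CD93 was higher and FLT1 lower after fWBI in white matter, while their centred levels ran together over the 45 libraries pooled. TBI animal 2 was the lowest TBI animal for both genes in all 3 regions. In fWBI white matter, animal 5 was lowest for CD93 (46.0 CPM) and had 42.4 CPM of FLT1. Correlation inside single groups was not tested. CD93 and CLEC1A had r = 0.26 within groups, and FLT1 and KDR 0.06.

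Some animals held the same place in every region. Of 21 pairings of a gene and a treatment, the same animal was highest in all 3 regions in 2 and lowest in all 3 in 4. VWF was highest in fWBI animal 1 and in TBI animal 5 throughout. CD93, CLEC1A and FLT1 were each lowest in TBI animal 2 throughout, where CD93 was 4.40 CPM in white matter, 2.20 CPM in hippocampus and 2.12 CPM in prefrontal cortex. CLEC1A was lowest in fWBI animal 5 in all 3 regions.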

How the data were processed

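The authors deposited raw counts of reads, 1 column for each of 45 libraries and 1 line per gene, from ribosome-depleted stranded total RNA libraries, per the labels' protocols. FastQC, STAR, featureCounts and DESeq2 are named without versions, per the submitters' processing notes; with the genome build, annotation and strand option not given in the sources used here, no coordinates are printed and reads of overlapping antisense genes may not be separated. Symbols came from a table of gene IDs (15769 of 30246 IDs matched; IDs without a symbol held 16.0 to 23.8% of a library's counts). The 7 genes were ENSMMUG00000016813 (CD93), ENSMMUG00000005832 (CLEC1A), ENSMMUG00000021538 (FLT1), ENSMMUG00000012669 (KDR), ENSMMUG00000006080 (TEK), ENSMMUG00000011809 (PECAM1) and ENSMMUG00000022893 (VWF).

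Irradiation groups were compared within a region on its 15 libraries with TMM scaling, edgeR's default filter by group and its two-sided quasi-likelihood test (edgeR 4.0.16, R 4.3.3), adjusted by Benjamini-Hochberg over all genes tested. Regions were compared in the 5 controls with animal as a block, and irradiation effects between regions in 1 fit of the 45 libraries that also blocked on animal. Log2 CPM used a prior count of 2. The 7 genes, the 13 other lists and the tests were chosen with earlier results of these data known. The 7 genes were named in every comparison; from each other list up to 3 genes past the threshold with the smallest adjusted p were named, or the first 2 tested as values only (1 gene, and the white matter count of its list, are not reported here), and likeness was ranked among genes with a symbol and at least 1 CPM on average. Libraries of 1 animal deviated together across regions (median r = 0.288 over 45 pairs, across genes, 41 above 0.1), a pairing that comes from the labels. The p-values of comparisons within a region measure the spread between animals. Those of the fits blocked on animal measure the spread left once each animal's own level is removed. On simulated counts for fWBI against control in white matter (15103 genes), 98% of 4-fold and 64% of 2-fold changes were recovered. For TBI against control there, 89% and 60% were. Each simulation changed 100 genes by each fold, while 11 genes passed in the real TBI comparison there. The Benjamini-Hochberg threshold is stricter where fewer genes pass, so these shares cannot be taken as the recovery of that comparison. Alternatives were DESeq2 1.42.0, other scaling, filters and libraries in the fit, a grey or white matter covariate, a block on replicate number, and fits with libraries left out; for list genes and the exact tests, leaving out control white matter libraries 1 and 3 was added after seeing the data.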

Additional observations from a re-analysis of the deposited data

Results flagged for a closer look

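VWF had a single library far above the other 4 of its group in 3 of its 9 groups, the only ones among 63 combinations of a gene and a group. Chance flags about 1 in 20 if values are normally distributed, which CPM need not be. That rate gives about as many flags as were found. VWF was 82.2 CPM in the hippocampus of fWBI animal 1, where the other 4 fWBI animals had 23.5 to 40.4 CPM. It was 85.6 CPM in the prefrontal cortex of the same animal, where the others had 26.9 to 41.1 CPM. It was 115 CPM in the prefrontal cortex of TBI animal 5, where the others had 24.0 to 49.3 CPM.

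The fWBI effect differed between regions for 2 of the 7 genes, by a test of the difference itself. For CD93 it was larger in white matter than in prefrontal cortex by 2.19 on the log2 scale and than in hippocampus by 2.13. For PECAM1 these differences were 0.85 and 0.81.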

How the results depend on the processing

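Of 2037 values of single genes of the 7 under alternatives, 1919 kept their side of the threshold, 98 lost the call and 20 gained one. A change of direction was counted only for values called in either fit, and there were 0. Uncalled values could change direction within the 1919. TEK after fWBI in white matter, 0.07 in the main analysis, reached -0.03 with a library left out. The 1919 include values that were uncalled in the main analysis and stayed so, while only called values could lose a call. CD93, CLEC1A and PECAM1 after fWBI in white matter kept their calls under all 19 settings. There, KDR kept its call in 15 of 19 settings, FLT1 in 6 and VWF in 5. The main counts of called genes among the 7 changed as follows, and the cause was not tested. Without control white matter libraries 1 and 3, fWBI against control in white matter had 3 in place of 6, and the difference of the fWBI effect between white matter and prefrontal cortex, and between white matter and hippocampus, had 1 each in place of 2. Against the other endothelial genes, 0 of 42 values passed there in place of 11. Of 7 neuronal genes called as lower, SNAP25, STMN2 and NEFL turned to 0.13, 0.24 and 0.40, uncalled. The last 2 results were added after seeing the data. TBI against control in white matter had 2 in place of 0 by DESeq2 and by a fit of all 45 libraries. For fWBI against TBI in hippocampus DESeq2 had 3 in place of 1, and no filter, only the 2 groups compared and all 45 libraries had 2 each. In prefrontal cortex, fWBI against control had 4 by DESeq2 and 1 with only the 2 groups compared, in place of 2, and fWBI against TBI had 0 with only the 2 groups compared and with the covariate, in place of 1.

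Leaving out 1 library gave 3 to 5 for fWBI against control in white matter, 1 to 3 in hippocampus and 1 to 2 in prefrontal cortex. It gave 2 to 3, 0 to 1 and 0 to 1 for fWBI against TBI in the same regions. In the fits blocked on animal, 1 animal was left out with all its libraries. That gave 0 to 2 for white matter against prefrontal cortex in controls and 1 to 3 for white matter against hippocampus. It gave 1 to 3 for both differences of the fWBI effect. Against the other endothelial genes, leaving out 1 library gave 8 to 15 of 42.

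Animals of different treatments share only a number: their deviations had a median r of 0.0128 over 45 pairs, 13 above 0.1, and 10 of 45 libraries correlated best with their own number. With that number as a replicate block, fWBI against control in prefrontal cortex had 4 of the 7 in place of 2 (KDR adjusted p = 0.0139, PECAM1 0.0434), in white matter 4 in place of 6 (FLT1 adjusted p = 0.0647, VWF 0.0928), and fWBI against TBI in white matter 3 in place of 4. Without the animal block, the comparisons between regions gave the same counts among the 7.

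Over all genes, the settings gave 1639 to 4062 calls for fWBI against control in white matter (2537 in the main analysis), 71 to 277 in hippocampus (111) and 121 to 466 in prefrontal cortex (179). For TBI against control they gave 0 to 1738 in white matter (11), 0 to 60 in hippocampus (0) and 0 to 254 in prefrontal cortex (0). For fWBI against TBI they gave 958 to 1837 (1117), 34 to 135 (52) and 43 to 93 (45). For the fWBI effect they gave 1055 to 2008 for white matter against prefrontal cortex (1654) and 925 to 1785 against hippocampus (1488), and for the TBI effect 1 to 82 (5) and 0 to 55 (1). With 5 animals a group, 2-fold changes could be missed, and CLEC1A rests on as few as 3 counts in a library.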
